A study of Mus musculus with 4 samples.

Results

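The mouse expression array used for these RNA immunoprecipitations carries, beside its annotated genes, probes for transcribed positions that the array file lists without a gene symbol. Members were the library probes listed under their own probe number or an accession instead of a symbol, whose signal the scanner software marked as well above background on at least 2 of the 4 arrays. Of 22425 such probes among 55681 library probes, 14446 met this rule, on 14455 spots; 14427 of them had a usable value on every array and were fitted, 19 were left out, and 11428 were well above background on all 4 arrays. The members were thus chosen by the detection mark, a measured value of these arrays, and their signal level is given as a description. Cortical and hippocampal lysates of 8-week-old male C57BL/6 mice were divided between beads carrying CPEB2 IgG and beads carrying control IgG, kept with the beads for 3 h, and the precipitated RNA was hybridised to 1-colour arrays, with 2 arrays for each antibody. The sample titles, treatment text and methods name CPEB2 IgG, whereas the free-text description of the same samples names CPEB3 IgG; CPEB2 is used here. Neither antibody had a knockout lysate beside it, no input RNA was analysed here, and each antibody lay at its own slide positions, so that antibody and position cannot be told apart.

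Long intergenic noncoding RNAs (lincRNAs) are transcripts made from stretches between protein-coding genes. Many are spliced and polyadenylated as mRNAs are, some stay in the nucleus, and a few, such as Malat1 and Neat1, build or associate with nuclear bodies. CPEB2 is an RNA-binding protein that recognises U-rich cytoplasmic polyadenylation elements, usually near the end of an mRNA, and controls the translation of the mRNAs that carry them. Arrays of this type also hold probes for expressed sequence tags, predicted transcripts and processed pseudogenes, which are reverse-transcribed copies of mRNAs inserted elsewhere in the genome. A 60-base probe to such a copy can also take up the RNA of the parent gene.

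The sequences on which the results turn are printed first, as the array lists them, in the direction of the detected RNA, 5′ to 3′, with positions on mouse build mm9. The first set shows both strands of 3 lincRNA intervals, and capitals mark the stretch in which the probe of one strand is complementary to the probe of the other. The probes lie at chr17:26913259-26913288 (the printed part of both strands), chr5:35976974-35977033 forward, chr5:35976938-35976997 reverse, chr13:58485572-58485631 reverse and chr13:58485596-58485655 forward.
chr17 forward: CCTTAGGGTCCTGTCTGTGATACGATCATA
chr17 reverse: TATGATCGTATCACAGACAGGACCCTAAGG
chr5 forward: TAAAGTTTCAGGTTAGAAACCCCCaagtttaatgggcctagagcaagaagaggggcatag
chr5 reverse: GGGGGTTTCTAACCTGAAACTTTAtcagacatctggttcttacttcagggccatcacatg
chr13 reverse: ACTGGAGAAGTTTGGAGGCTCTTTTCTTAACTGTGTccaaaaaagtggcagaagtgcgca
chr13 forward: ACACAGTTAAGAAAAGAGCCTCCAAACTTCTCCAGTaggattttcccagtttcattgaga

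The second set shows 3 members with high ratios, since CPEB2 is known for U-rich elements; the chr1 probe among them was detected on the CPEB2 IgG arrays alone, so its ratio had to be high. Capitals mark TTTTAT, the DNA form of a cytoplasmic polyadenylation element. The 3 probes were picked with their sequences and values known, so they do not show how common it is. Among members on 4 arrays it was in 5.29% of the higher ones and in 2.70% of all. TC1615392 is on the reverse strand at chr10:39609941-39609970, the chr1 probe on the reverse strand at chr1:6200426-6200455, and the chr9 probe on the reverse strand at chr9:81540789-81540848; TC1615392 and the chr1 probe are printed in part.
TC1615392: gactttctcaagTTTTATgctgagtgacaa
chr1 reverse: tgtaattcccatTTTTATggttatctctgg
chr9 reverse: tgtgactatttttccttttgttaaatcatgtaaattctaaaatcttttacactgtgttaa

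The third set places members with low ratios beside probes for Gapdh, a glycolytic enzyme whose mRNA has many processed pseudogenes. Capitals mark the longest stretch shared within a pair. ENSMUST00000091621 lies on the reverse strand at chr13:49900600-49900629 and the chr4 interval probe on the forward strand at chr4:32294443-32294502, and the Gapdh probes are placed by the array file at chr8:94212550-94212579 and chr6:125112979-125113038, both reverse strand.
ENSMUST00000091621: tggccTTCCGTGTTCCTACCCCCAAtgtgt
Gapdh probe A_55_P2037425: TTCCGTGTTCCTACCCCCAAagtgtccgtc
chr4 forward: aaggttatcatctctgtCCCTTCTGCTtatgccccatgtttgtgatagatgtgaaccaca
Gapdh probe A_55_P2088912: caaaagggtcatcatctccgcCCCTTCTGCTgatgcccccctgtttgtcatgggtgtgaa

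The last set holds a probe of the lincRNA TUG1 (reverse strand, chr11:3540203-3540262) and the brightest lincRNA interval probe (reverse strand, chr19:5802130-5802189). The latter lies inside the span that the array file gives for NEAT2, which RefSeq names Malat1. Part of AK146780 (reverse strand, chr14:94684340-94684369), a simple repeat, is shown too. No capitals are used.
TUG1: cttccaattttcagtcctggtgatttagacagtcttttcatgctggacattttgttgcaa
chr19 reverse: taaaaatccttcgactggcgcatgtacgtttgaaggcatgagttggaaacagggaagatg
AK146780: gagagagaagaagaagaagaagaagaagaa

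Loci without a symbol were dim, and fewer of them than of all probes were called in either direction. The 4 arrays marked 56.1% to 64.0% of the probes without a symbol as well above background, against 68.4% to 74.1% of all library spots. The median raw signal of the members was 71.7 and 59.6 on the CPEB2 IgG arrays and 78.9 and 81.6 on the control IgG arrays, in arbitrary intensity units, and no spot was saturated. CPEB2 IgG replicate 2, the dimmest of the 4, is also the array on which the fewest of these probes were detected. All 28 listed neuronal and non-neuronal marker genes of the tissue were well above background on all 4 arrays, with 9 of 9 for neurons, 5 of 5 for astrocytes and 4 of 4 for oligodendrocytes.

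Ratios are log2 of CPEB2 IgG over control IgG after each array was scaled to its 75th percentile, averaged over the 2 experiments, so that 1 is a doubling. By limma with the experiment as a block and Benjamini-Hochberg adjustment over 41151 probes, 822 of the 14427 fitted members (5.70%) were higher in the CPEB2 IgG precipitates and 1584 (10.98%) lower, taking an adjusted p under 0.05 as the limit. Over all probes tested the shares were 12.7% and 14.8%. The median ratio of the members was -0.27, with -0.07 in experiment 1 and -0.48 in experiment 2, and that of all probes tested was -0.20. Centring each array on its median instead of its 75th percentile gave 1398 higher and 1547 lower members, so that 47.5% instead of 34.2% of the calls were higher. Leaving out CPEB2 IgG replicate 2, with no block, gave 420 and 558, leaving out control IgG replicate 1 gave 412 and 575, and leaving out control IgG replicate 2 gave 444 and 732.

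Some members passed the detection rule through 1 antibody alone, and those had to differ between the antibodies. Both CPEB2 IgG arrays alone carried 171 members and both control IgG arrays alone 449, and a further 1187 were missed only on CPEB2 IgG replicate 2. The comparison is therefore read on the 11428 members detected on all 4 arrays, of which 680 were higher (5.95%) and 1162 lower (10.17%), with a median of -0.24. The order of these counts depended on the scaling: on the same 11428 probes median centring turned it, with 1138 higher and 1063 lower and a median of -0.01, and quantile normalization gave 928 and 1141. Among all 35387 probes on 4 arrays these shares were 13.7% and 14.6%, and among the 23959 with a gene symbol 17.43% and 16.77%, with a median of -0.10. The smallest ratios called in this fit were 1.001 and -1.001 on the log2 scale. With 2 arrays per antibody this limit depended on the fit: after normexp background correction the expressed sequence tag BB001409 was called at 0.83. Across members on 4 arrays the ratios of the experiments correlated with Pearson's r = 0.69 over 11428 probes, and across probes with a symbol with r = 0.87 over 23959; probes of 1 array share its labelling and scaling and are no independent replicates.

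**Figure D1:**
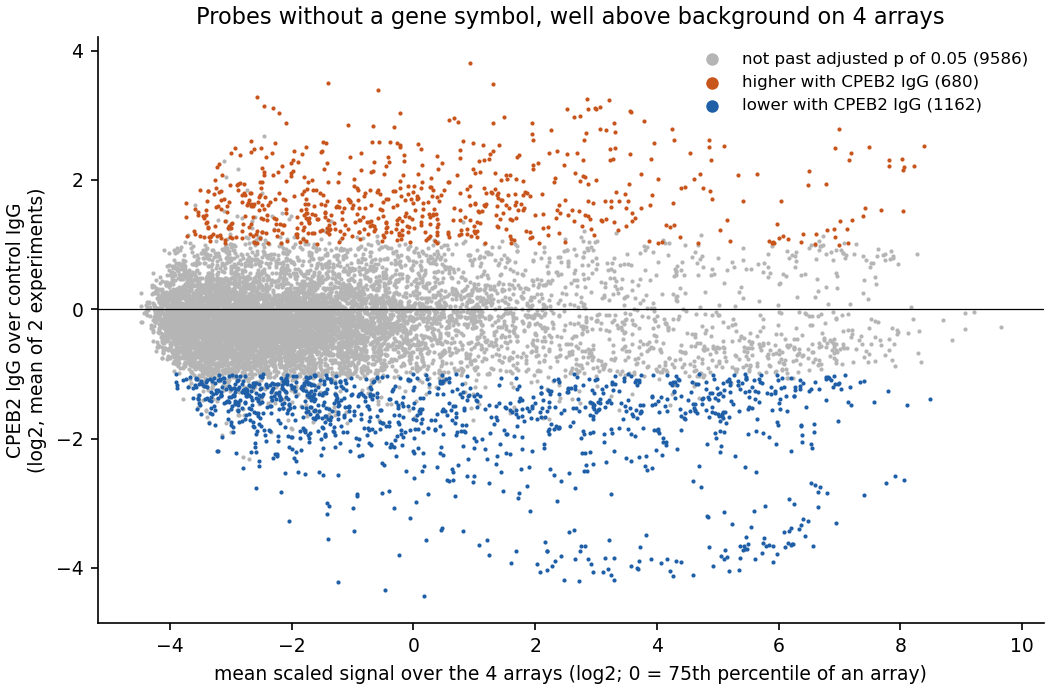
Each point is 1 probe without a gene symbol that was well above background on all 4 arrays (n = 11428), with its mean scaled signal on the x axis (log2, 0 is the 75th percentile of an array) and its mean log2 ratio of CPEB2 IgG over control IgG on the y axis. The 680 higher members (orange) and 1162 lower members (blue) lie beyond about 1 and -1, and a cluster of lower members near -3.6 appears at high signal.

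The members fell into 10 classes by the start of their accession, and these differed in signal and ratio. LincRNA intervals, regions named by their coordinates and strand, made up 10198 of the 14446 members and were the dimmest large class, with a median scaled signal of -2.27 among the 7917 on 4 arrays; the signal of a probe also depends on its sequence and is not a level of RNA. Of these 471 (5.95%) were higher and 529 (6.68%) lower, with a median ratio of -0.20. Other scalings turned the order of these counts, with 626 higher and 508 lower after quantile normalization and 773 and 503 after median centring, where the median was 0.02. Probes with no accession at all (1571 on 4 arrays) had 88 higher and 275 lower and a median of -0.40. Members with an NAP number, a prefix whose meaning the array file does not give, were the brightest large class at a median scaled signal of 2.52, and 50 of 698 were higher and 239 lower, that is 34.24%, with a median of -0.60.

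Transcript models and cDNA classes were smaller. Ensembl transcripts (507 on 4 arrays) had 22 higher and 57 lower with a median of -0.29, and TIGR consensus sequences (TC, 273) had 13 and 33 with -0.28. Full-length RIKEN and related cDNAs with AK numbers (180) had 10 higher and 8 lower with a median of -0.18. Of 35 BC clones 1 was higher and 4 lower, of 19 predicted XR transcripts 2 and 4, and of 206 with other accessions 16 and 11. The order of the counts of the AK, BC, XR and other accessions was not the same under every scaling: median centring gave 5 higher and 3 lower BC clones and 3 and 1 XR transcripts, and normexp background correction 16 and 17 AK cDNAs and 18 and 25 other accessions. The 22 BB expressed sequence tags on 4 arrays had 7 higher and 2 lower and a median of 0.33, which was 0.66 in experiment 1 and 0.00 in experiment 2. The class differences are descriptions: probes of a class share design, brightness and base composition, and the part of these in the ratios was not tested.

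**Figure D2:**
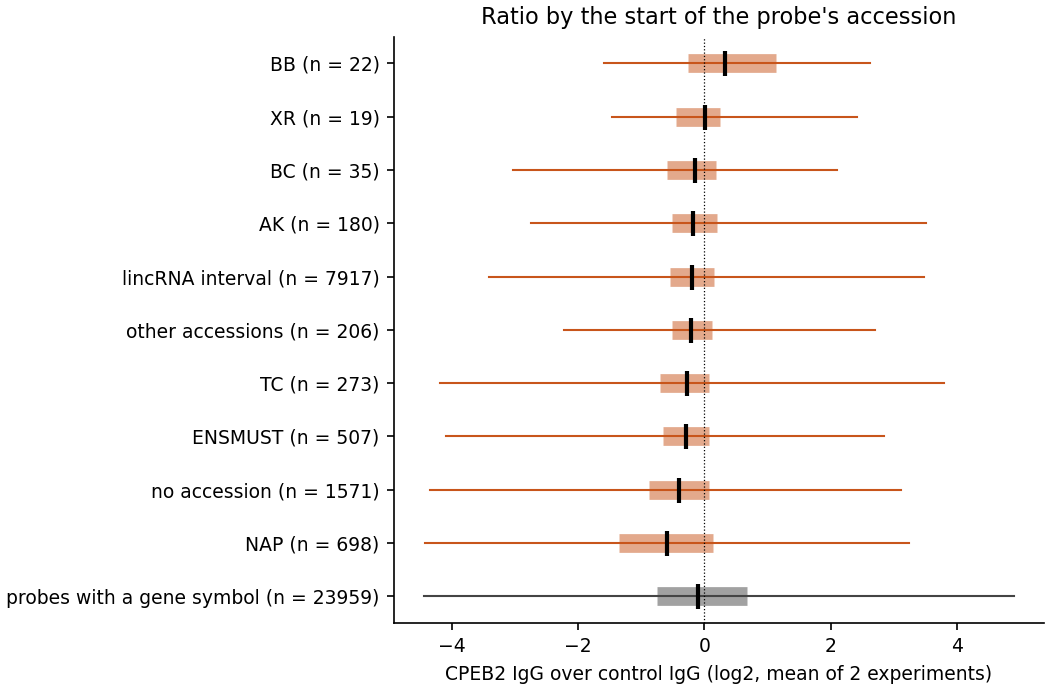
Log2 ratio of CPEB2 IgG over control IgG (x axis, mean of 2 experiments) for each class of probe without a gene symbol (orange) and for probes with a symbol (grey), all well above background on 4 arrays. The black tick is the median, the thick bar the quartiles and the thin line the full range; medians run from 0.33 for BB tags to -0.60 for NAP numbers, against -0.10 for probes with a symbol. After median centring the medians of the lincRNA, AK, BC and other accessions lay above 0, from 0.01 to 0.08.

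The ratios of probes of 1 lincRNA interval and strand were set beside those of all lincRNA members. The members covered 3115 intervals and 4012 interval strands. The SD of the ratio among probes of the same interval and strand had a median of 0.34 over 2133 interval strands. Over all lincRNA members on 4 arrays the SD was 0.75, with quartiles of -0.54 and 0.16. The first value is a median over small groups of at most 10 probes, and the second takes in the extreme probes. The 2 SDs are thus unlike measures, and whether probes of 1 interval vary less was not tested. Of 1718 interval strands with at least 3 member probes, 581 had a called probe, 42 had every probe higher, 11 had every probe lower and 21 held probes called in both directions; these counts include members detected with 1 antibody alone. Some probes of an interval overlap, while others lie side by side or far apart. All were read on the same 4 arrays, so they are no independent replicates.

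The interval chr17:26911397-26917047 held the most member probes, 20, and 19 of them were higher with CPEB2 IgG. The 10 forward-strand probes had a median raw signal of 9115 and 10279 on the CPEB2 IgG arrays and 1182 and 1164 on the control IgG arrays. Every forward probe was higher on both CPEB2 IgG arrays than on both control arrays. Their ratios ran from 2.77 to 3.24, and each passed the test. An overlapping annotation on the same strand, chr17:26911032-26912366, had 3 further probes at 1.22, 2.88 and 3.48, of which the last had raw signals of 2631, 4485, 295.6 and 345.6 (CPEB2 IgG 1 and 2, then control IgG 1 and 2; SE 0.30, limma adjusted p = 0.00676). The nearest probe with a symbol on this strand, 2586 bases from that probe, belonged to Crebrf, a regulator of the transcription factor CREB3, and had a ratio of 2.90.

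The reverse strand of the same chr17 interval was dim. Its 10 probes had median raw signals of 143 and 120.1 on the CPEB2 IgG arrays and 28.6 and 26.3 on the control IgG arrays, with ratios from 0.68 to 3.28, and 9 were higher. Of the 10, 3 were detected on the CPEB2 IgG arrays alone and so had to differ, and 6 of the 7 on all 4 arrays were higher. In the complementary pair printed above, the forward probe had raw signals of 9216 and 10268 against 1182 and 1176, and the reverse probe 229 and 226 against 32.7 and 21.8. The ratios of this pair were 3.10 and 3.14. The array file gives no position for 5 of the reverse probes.

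Other lincRNA intervals with high ratios were shorter or dimmer. The 3 reverse-strand probes of chr1:6199946-6200603 had ratios of 3.12, 2.42 and 3.00, but those with 3.12 and 3.00 were detected on the CPEB2 IgG arrays alone, so that they had to differ and their ratios are a description. The probe with 2.42, the one detected on all 4 arrays, had raw signals of 121 and 122 in the CPEB2 IgG precipitates against 21.6 and 25.5 in the control ones. In chr9:81537835-81583227 a reverse-strand probe rose from 80.8 and 98.6 with control IgG to 618 and 1311 with CPEB2 IgG, a ratio of 3.39 (SE 0.32, limma adjusted p = 0.00676). This probe has a GC content of 23.3% and carries no TTTTAT, whereas the chr1 probe printed above does. The nearest probe with a symbol, on the other strand at 2534 bases, belonged to D430036J16Rik.

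At the low end, all 3 probes of the intervals chr7:26227170-26234328 (reverse) and chr3:146515333-146557069 (forward) were lower. The median raw signals of the chr3 probes were 802 and 708 in the CPEB2 IgG precipitates against 3549 and 3572 in the control ones, and their ratios lay between -2.24 and -2.19 although the outer probes are over 40 kb apart in the interval. The chr7 probes had median raw signals of 161 and 119 against 463 and 485, with ratios from -2.24 to -1.72. The lowest single lincRNA probe, in chr4:32294119-32294941, had raw signals of 1010.2 and 625 against 8010 and 9554 (ratio -3.41, SE 0.35, limma adjusted p = 0.00676), and its printed sequence resembles the Gapdh probe beside it. The next, in chr7:69024136-69131056 (ratio -3.27), shares 20 bases with a probe for Snrpb, a core spliceosome protein, whose ratio was -2.95.

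The strands of 1 interval often differed. Over 779 intervals with members of both strands on 4 arrays, the median ratios of the strands correlated with r = 0.33 (Spearman's rho = 0.19) and their signals with r = 0.11, and in 260 the ratios had opposite signs. Where the strands differed in signal by under 1 log2 unit, r was 0.20 over 368 intervals; where they differed by at least 4 units, it was 0.52 over 57. These are correlations across intervals of the same 4 arrays.

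The largest differences between strands were seen in 3 intervals. In chr13:58474388-58487288 the 4 reverse probes had median raw signals of 97.3 and 70.4 in the CPEB2 IgG precipitates against 700 and 603 in the control ones, ratios from -3.16 to -2.61, and all 4 were lower. The 4 forward probes were dim, with medians of 36.0 and 16.6 against 37.2 and 35.6. Their ratios ran from -1.66 to -0.22 around a median of -0.87, and none was called. Only 1 of these 4, the printed one at -0.23, was detected on all 4 arrays. The strand difference of this interval was ranked on that probe alone, and the probe at -1.66 was detected on 2 arrays. The neighbouring symbol on the reverse strand was 2210016F16Rik, with a ratio of -1.03.

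In chr5:35975265-35982561 both strands were bright and moved in opposite directions. The 4 reverse probes had median raw signals of 3014 and 4208 in the CPEB2 IgG precipitates against 1141 and 1808 in the control ones; all 4 were higher, from 1.31 to 1.55. The 4 forward probes had medians of 1562 and 4594 against 3160 and 8583. Of these 4, 3 were lower, from -1.25 to -1.10, and the probe at -0.77 was not called. The forward strand was brighter in experiment 2 than in experiment 1 with either antibody, so that the raw signals of the antibodies overlap while the ratio is negative within each experiment. In chr11:35805295-35817263 the forward probe (2309 and 2842 against 9335 and 10912) was lower at -1.92, and the dim reverse probe (31.7 and 48.4 against 24.1 and 18.5) had a ratio of 0.94 that did not pass the test.

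**Figure D3:**
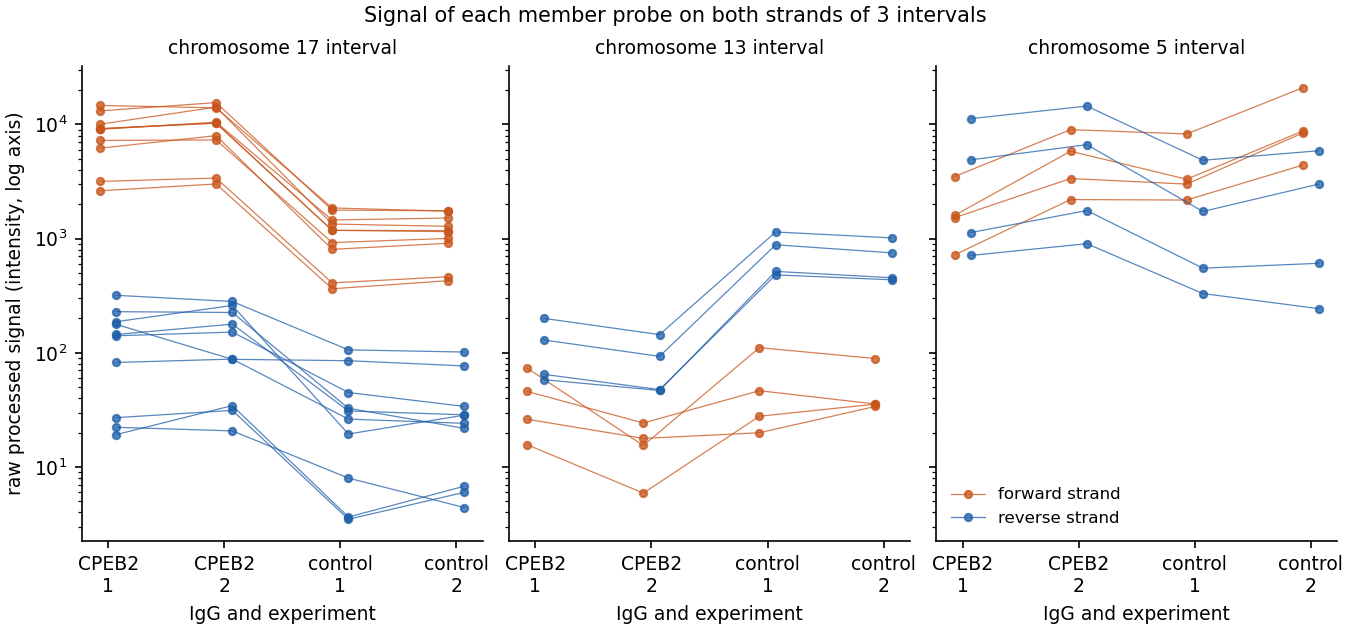
Raw processed signal (intensity, log axis) of every member probe of 3 lincRNA intervals on the 4 arrays, forward strand in orange and reverse strand in blue, with each line joining the values of 1 probe. On chromosome 17 both strands fall from CPEB2 IgG to control IgG at signal levels far apart. On chromosome 13 all reverse probes rise, and some of the dim forward probes rise as well. On chromosome 5 the reverse strand falls within each experiment while the forward strand rises.

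The ratio of a lincRNA interval followed that of an annotated gene close by on the same strand. Among pairs of a lincRNA interval probe and its nearest same-strand probe with a symbol that did not overlap, Pearson's r was 0.79 for distances up to 500 bases (300 pairs), 0.50 from there to 2000 bases (294), 0.32 from 2 to 10 kb (1087), 0.03 from 10 to 50 kb (2165) and -0.01 beyond (2252). For probes on the other strand r fell from 0.62 (171 pairs) through 0.42 (340) and 0.12 (793) to 0.02 (2181). Where the same-strand gene within 2 kb, without overlap, was higher (122 pairs), 76 of the lincRNA probes were higher and 1 was lower. Where it was lower (42 pairs), 11 were lower and none was higher. Several probes share a neighbour, so the pairs are not independent, and whether a probe lies in an unannotated exon or end of that gene was not analysed here.

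LincRNA probes with a same-strand symbol probe within 10 kb (1902 on 4 arrays) were higher in 12.67% and lower in 5.52%, with a median ratio of -0.06. Those with a symbol probe within 10 kb on the other strand alone (1100) were higher in 6.73% and lower in 5.18%, with a median of -0.17. Those with none within 10 kb on either strand (4848) were higher in 3.16% and lower in 7.49%, with a median of -0.26. The lincRNA probes farthest from a fitted probe with a symbol were thus the least often higher. For these 3 groups symbol probes well above background on at least 2 arrays counted as neighbours, and distances run between probes, not to the ends of genes. After median centring these counts were 352 higher and 89 lower, 126 and 61, and 287 and 351, in the same order of distance.

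**Figure D4:**
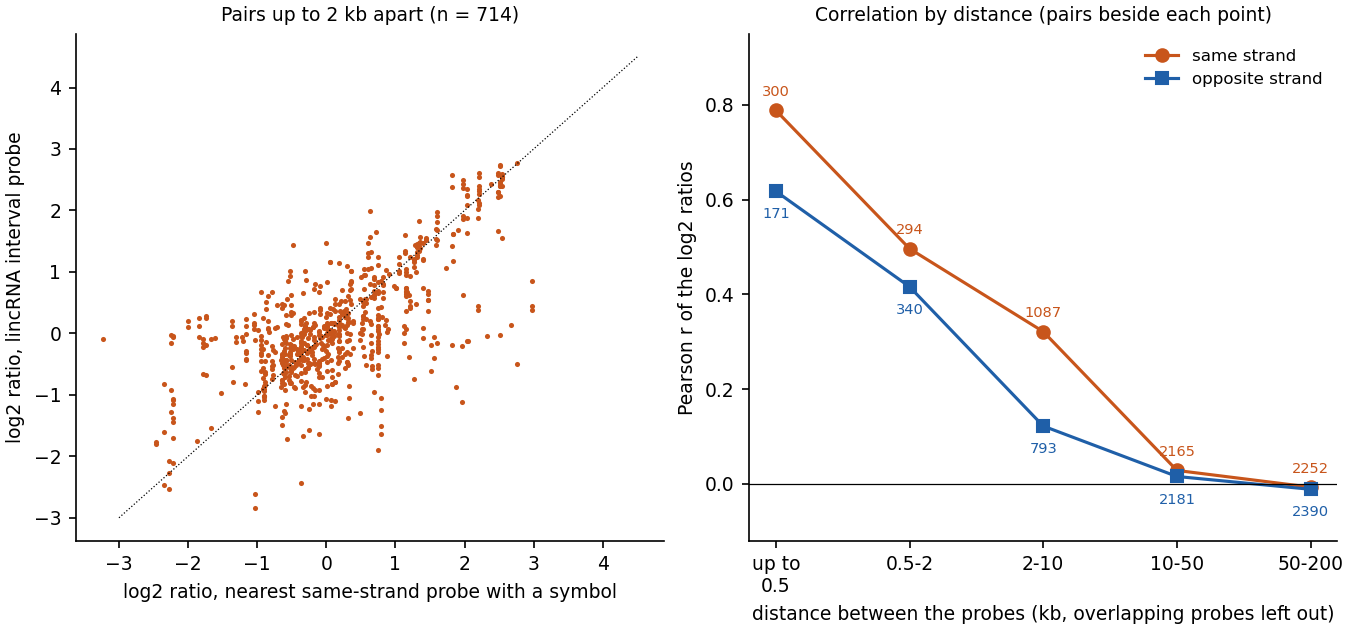
Left, log2 ratio of a lincRNA interval probe (y axis) against that of the nearest same-strand probe with a gene symbol up to 2 kb away (x axis), 714 pairs that include overlapping probes; the dotted line marks equal ratios. Right, Pearson's r of such pairs by distance in kb without overlapping probes, same strand (orange) and opposite strand (blue), with the number of pairs beside each point: r falls from 0.79 to -0.01 on the same strand.

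Members that stand for known long noncoding RNAs behaved one by one. Tug1 is a lincRNA widely expressed in brain, and 12 members lay within 10 kb of its annotated probes on the same strand. Of these 12, 10 were higher, with ratios from 0.60 to 1.74 around a median of 1.51. The printed TUG1 probe had raw signals of 865 and 1153 in the CPEB2 IgG precipitates against 288 and 335 in the control ones (ratio 1.74, limma adjusted p = 0.0119). The lowest of the 12 was at 29.8 and 39.7 against 34.0 and 16.4, with overlapping groups. Of the 5 probes listed as TUG1, 4 were higher.

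No member near the nuclear RNAs Malat1 and Neat1 was called. The 10 members at or near Malat1, an RNA found in nuclear speckles, had ratios from -0.32 to -0.05 and a median of -0.27. The 8 near Neat1, which builds paraspeckles, had ratios from -0.27 to 1.59 and a median of -0.07. The 15 near Pvt1 had ratios from -0.75 to 0.54 and a median of -0.17, with none called among either. Of 15 members near the imprinted RNA Mirg 1 was lower. A dim member 145 bases from an Airn probe, detected on 3 arrays, was lower at -1.36, and the others near Airn were not called. The 4 probes of BRN1-A had ratios from -1.27 to -0.98 and 3 were lower. XIST, KCNQ1ot1, H19, PINC, NRON, HOTAIR and lincP21, with 1 to 4 probes each, had no called probe. For comparison, 18 of 26 listed long noncoding RNAs that do have a symbol were tested with 32 probes; 4 of these were higher, 3 of Tug1 and 1 of 1700020I14Rik, and none was lower by limma, with ratios from -0.69 to 1.59 around a median of -0.18.

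The highest ratios outside the lincRNA intervals came from single probes of several classes. TC1615392 had raw signals of 2354 and 3789 in the CPEB2 IgG precipitates against 204 and 242 in the control ones, a ratio of 3.80 (SE 0.29, limma adjusted p = 0.00676), the highest among members on 4 arrays. AK129341 followed at 357 and 787 against 39.5 and 59.4 (ratio 3.51), and NAP111509-1 at 10856 and 8027 against 1219.9 and 854 (3.25). The probe A_55_P2153141, with no accession or position, had 8459 and 12683 against 1394 and 1092 (3.12) and shares 32 bases with a probe for Siva1, whose ratio was 2.89. In each of these the lower CPEB2 IgG array lay above both control arrays.

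Further members with high ratios had transcript records. ENSMUST00000100848, a predicted gene, had raw signals of 464 and 608 against 79.1 and 74.4 (ratio 2.84), and BB558042, an expressed sequence tag 2623 bases from Klf3 on the same strand, 6635 and 7809 against 1351 and 1096 (2.62). XR_140666 had 835 and 336 against 90.8 and 118, and its ratios of 3.28 and 1.54 in the experiments gave a mean of 2.41 with a wide SE of 0.47. BC023829 (chrX:67713117-67713176, reverse) had 1660 and 1845 against 441 and 403 (2.11), and the symbol probe of the same gene 182 bases away had 1.76. A pair of overlapping BB713741 probes gave 1.88 and 1.79.

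A number of members with low ratios resembled Gapdh. A member was counted if its longest stretch shared with any symbol probe, of at least 20 bases, was with a Gapdh probe. A Gapdh description or a local alignment score of at least 25 against a Gapdh probe also counted. By this rule 34 members resembled Gapdh, and all 34 were lower, with ratios from -4.19 to -1.90 around a median of -3.64. Their median raw signal was 5019.9 and 4022 in the CPEB2 IgG precipitates against 60880.4 and 73494 in the control ones. The 7 probes with the symbol Gapdh were also all lower, with a median of -3.67. The group was assembled after its ratios had been seen, so its count is a description. TC1700577, described as a glyceraldehyde-3-phosphate dehydrogenase, is one of them (1058 and 868 against 15563 and 21104; ratio -4.19). The printed ENSMUST00000091621 (2713 and 2200.2 against 38294 and 49632, ratio -4.10) is not counted, although it shares 20 bases with the printed Gapdh probe. Its longest shared stretch, 21 bases, was with a probe for 3000002C10Rik, whose ratio was -4.02.

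Other members with low ratios were not matched to a gene. NAP112914-1 was the lowest member on 4 arrays, with raw signals of 107 and 95.3 in the CPEB2 IgG precipitates against 2509 and 2055 in the control ones (ratio -4.44, SE 0.28, limma adjusted p = 0.00676). A_55_P1967224 had 67.5 and 67.2 against 1277 and 1575 (-4.34). NAP114398-1 and A_55_P2186929 lie within 1 kb of each other at chr2:21990326-21990385 and chr2:21990925-21990984 on the forward strand and had ratios of -4.21 and -4.07. BC098458, whose record warns of a chimeric clone, had 8816 and 7197 against 68161 and 67395 (-3.04), and AK203298 18087 and 15074 against 110248 and 119508 (-2.74).

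Members that share sequence with an annotated probe had the ratio of that probe. A stretch of at least 20 identical bases with a probe that has a symbol was found in 802 members, 754 of them on 4 arrays. Over these 754 pairs the ratios correlated with r = 0.97, the median absolute difference was 0.10, and 709 had the same call and none the opposite one. The share of members with such a stretch was 24.97% for NAP numbers and 17.2% for probes with no accession, and 1.56% for lincRNA intervals. In 669 of the 802 the positions did not overlap or were not given. This search was added after the data had been seen. The 10674 members on 4 arrays with no shared stretch had 612 higher and 978 lower, with a median of -0.23.

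Examples of annotated genes that shared sequence with members, picked with their values known, follow. Pigr, the polymeric immunoglobulin receptor, shared a stretch with 26 members, whose ratios lay between -0.78 and -0.05; AK146780 and TC1636493 are among them, and the stretch is a purine repeat. Gm6981 shared with 12 members (median -3.41, all 12 lower) and Rpl17, a ribosomal protein, with 12 (median -0.61, 1 lower). Rpl7a shared with 6, all lower, at a median of -1.48. Above 0, ENSMUST00000085163 (predicted gene Gm10263) shares 43 bases with Rps28, a small-subunit ribosomal protein: its raw signals were 258649 and 280909 in the CPEB2 IgG precipitates against 65124 and 56165 in the control ones, a ratio of 2.21, against 2.13 for the Rps28 probe.

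Several of the brightest members were not called or were simple repeats. In chr19:5801802-5802597, 6358 bases from the Malat1 probe on the same strand, the printed probe had raw signals of 317289 and 291896 in the CPEB2 IgG precipitates against 429114 and 343129 in the control ones, a ratio of -0.28 that was not called. AK146780 (226004 and 118624 against 366673 and 150936) had -0.47 and no call, and its groups overlapped. AK148702, another purine repeat (80044 and 59591 against 269656 and 147477), was lower at -1.48. AK149306 went from -1.43 in experiment 1 to 1.25 in experiment 2. Of 777 members with a scaled signal above 4, 60 had opposite signs in the experiments; in 8 the ratio went from below -1 to above 1, and in none the reverse.

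The ratio fell as the GC content of the probe rose. The median of members on 4 arrays was 0.49 up to 30% GC (96 probes) and 0.06 from there to 35% (1269), and fell to -0.41 above 55%. For probes with a symbol the medians ran from 1.08 to -0.62. Centring the ratios within GC bins gave 685 higher and 1290 lower members, of which 620 and 1086 were also called without it. The part of base composition in the difference between the antibodies was not tested.

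**Figure D5:**
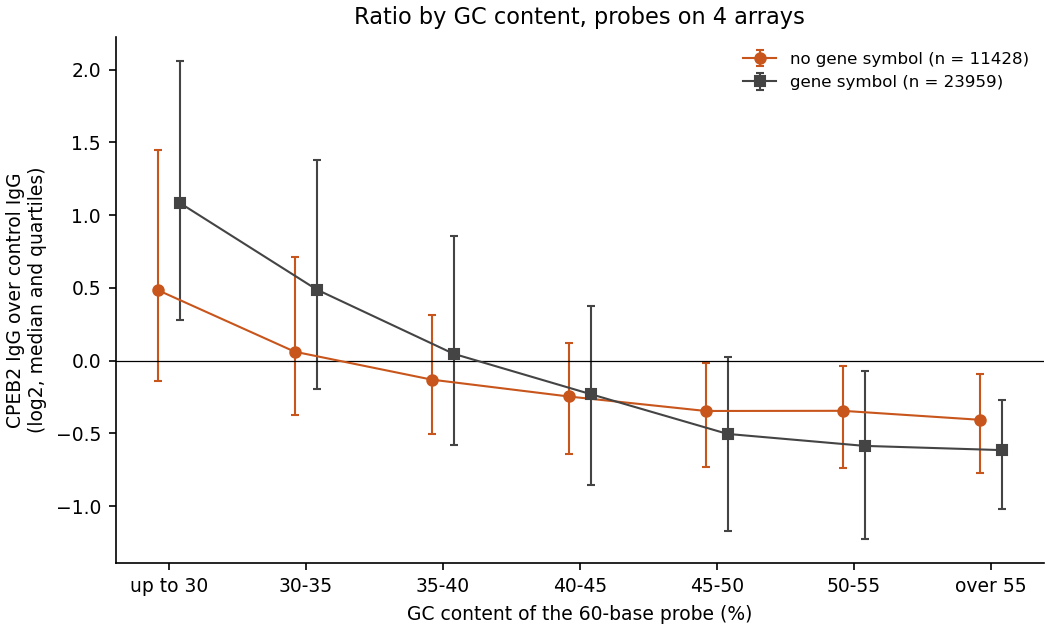
Median log2 ratio of CPEB2 IgG over control IgG (y axis, bars are quartiles) by GC content of the 60-base probe (x axis), for probes without (orange) and with a gene symbol (grey) on 4 arrays. Members fall from 0.49 to -0.41 and probes with a symbol from 1.08 to -0.62.

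Cytoplasmic polyadenylation elements were searched in the probe sequences as TTTTAT and TTTTAAT, on the listed strand unless stated; neither string contains the other. TTTTAT was present in 2.64% of members and 3.71% of all probes tested, and TTTTAAT in 0.66% and 0.90%. On either strand TTTTAT was in 6.13% and 8.86%. Among members on 4 arrays it was in 5.29% of the higher, 1.64% of the lower and 2.65% of the uncalled. The 309 with it had 36 higher and 19 lower and a median of 0.00, against -0.24 without it, a difference of 0.25. For probes with a symbol the medians were 0.58 with it (1037) and -0.13 without it.

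Within GC bins the difference was smaller. From 30% to 35% GC it was 0.15 for members (104 with the motif) and 0.37 for probes with a symbol (497). From 35% to 40% it was 0.14 (61) and 0.53 (243), and from 40% to 45% 0.08 and 0.29 (195). After centring within GC bins the difference for members turned to -0.03. A probe covers 60 bases, so these shares say nothing of the rest of each transcript.

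The study named raw signals above 1000 and more than 1.5-fold for a CPEB2-precipitated transcript. Its final list also required at least 1 cytoplasmic polyadenylation element in the 3′-untranslated region, which was not applied here. Applied here as more than 1000 raw units on 1 or both CPEB2 IgG arrays and a mean fold above 1.5, 3.35% of the fitted members passed, against 10.4% of all probes tested. By class the share was 11.5% for NAP numbers and 2.32% for lincRNA intervals, the brightest and the dimmest of the large classes. Among lincRNA probes on 4 arrays 7.26% passed with a same-strand symbol probe within 10 kb and 1.86% with none on either strand.

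Close to the detection threshold the values carry little. The dimmest member just inside it, CO800556 (raw signals 17.8, 3.69, 20.8 and 3.68), was detected in experiment 1 with both antibodies and in experiment 2 with neither. A probe of chr12:117623500-117643575 (3.60, 19.9, 3.75 and 21.1) showed the reverse, and one of chr17:41231055-41249764 (3.42, 4.27, 21.0 and 23.2) was detected with control IgG alone. Just outside it, probes of chr3:30032959-30079659 and chrX:165758353-165806110 were detected on 1 array each, at 426 on CPEB2 IgG replicate 2 and at 575 on control IgG replicate 2, with the other 3 arrays at or below 15.4.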

How the data were processed

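RNA precipitated by CPEB2 IgG or control IgG from mouse cortical and hippocampal lysates was read on 4 one-colour (Cy3) Agilent SurePrint G3 Mouse GE 8x60K arrays, 2 per antibody. The deposited files hold the intensity of each spot as the authors' scanner output gives it: the processed signal, background-subtracted by Feature Extraction, and its flags, not normalized between arrays. Positions are those of the array file (mm9); RefSeq names came from a table of another assembly (GRCm38.p6), used for names alone, and matched 30 members.

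Control spots and spots marked as outliers were left out, repeated spots averaged, and log2 of the processed signal was taken relative to the 75th percentile of each array. limma 3.58.1 (R 4.3.3) was fitted to all 41151 probes well above background on at least 2 arrays, with antibody and experiment as terms, Benjamini-Hochberg adjustment and a threshold of 0.05; 1 residual degree of freedom remains, so the spread is largely borrowed across probes. Each lysate was divided between the antibodies and arrays of the same number were taken as 1 experiment; their deviations from the group means correlated with r = 0.206. The labels do not say whether the experiments used separate animals, so p-values measure the spread between these arrays. An exact permutation test of 2 against 2 arrays in pairs could not pass the threshold. The fit was also run on simulated data with independent normal noise and no effect of the experiment. Such data differ from these paired arrays, and no outcome of that run is used here.

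Members and lists were chosen with earlier results of these data known. Named probes were the 3 brightest and the 3 (lincRNA, 5) most changed in each direction per class of at least 20 members, and the 3 most extreme intervals and strand differences; any other probe was picked with its values known. Neighbours were the nearest fitted probes with a symbol, by probe position. Alternatives were other scalings, background correction, filters, fits without the block, thresholds, distances and arrays left out. The number of arrays limits the precision.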

Additional observations from a re-analysis of the deposited data

How the results depend on the processing

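The order of higher and lower counts turned for members on 4 arrays under median centring, for all probes tested under median centring (7501 and 5596 against 5229 and 6100, median 0.02 against -0.20) and quantile normalization (6279 and 6141), for lincRNA intervals on 4 arrays under both, under GC centring (396 and 378) and with no block (504 and 473), and under some settings for the AK, BC, XR and other accessions and the lincRNA probes with a symbol on the other strand alone. The difference in ratio between members with and without TTTTAT was 0.25, -0.032 after centring within GC bins and 0.12 after normexp background correction; the cause was not tested. Against 822 higher and 1584 lower members, median centring gave 1398 higher, and the fit with no replicate block, that is without pairing the experiments, gave 859 and 1378. With no block, the fit without CPEB2 IgG replicate 1 gave 744 and 2009, that without CPEB2 IgG replicate 2 gave 420 and 558, that without control IgG replicate 1 gave 412 and 575, and that without control IgG replicate 2 gave 444 and 732. With no filter on dim probes behind the fit limma called 0 higher and 0 lower, with 1122 and 2154 at an unadjusted p under 0.05. A fit to probes on all 4 arrays called 983 and 1961, against 680 and 1162 of the same probes. Relative to the 75th percentile, the median of all probes moved by 0.23 with median centring, 0.16 with quantile normalization, 0.13 with normexp and -0.11 with the percentile over probes detected on 4 arrays.

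The correlation with the same-strand neighbour within 10 kb, overlapping probes included, was 0.47, with 0.69 up to 2 kb, 0.24 up to 50 kb, 0.45 after quantile normalization, 0.42 within GC bins, and 0.41 and 0.44 in the single experiments. That between strands was 0.33, and 0.19 and 0.30 in the single experiments. The members past the signal and fold thresholds numbered from 324 (mean fold above 2) to 666 (raw signal above 500). Leaving out members that share a stretch with a symbol probe, chosen after seeing the data, left 750 higher and 1392 lower.

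Named probes with a changed sign had ratios near 0: AK149306 was at 0.19 with quantile normalization and 0.14 with median centring, BC099970 at -0.22 within GC bins, and a chr19:5801802-5802597 probe, A_55_P1969874 and A_55_P2158281 at 0.060, 0.18 and 0.17 with median centring. The calls of AK144914, XR_140567, XR_140711 and XR_140447 were lost under at least 1 setting. Low signal limits the dim members: with normexp the chr17 reverse strand had a median ratio of 0.98 in place of 2.19 and 7 of 10 probes called.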
